A study of Mus musculus with 6 samples.

Results

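The genes described here encode acute phase and other secreted plasma proteins of liver, together with the cytokine receptors and the transducer that act on them. They are 36 genes chosen by name, and every probe that the array design names after one of them was taken, which gave 42 of the 55681 probes apart from controls. The livers were whole livers of C57BL6/J mice, an inbred strain, taken 2 h after the mice had been dosed by mouth. The CBZ group was 3 mice given 250 mg/kg of a compound that the labels name only as CBZ, and the DMSO group was 3 mice given the solvent dimethyl sulfoxide. The labels name no genetic change in either group, and 1 mouse gave 1 array. Probes had to be well above background in every mouse of the CBZ group or of the DMSO group to be tested, and 40 of the 42 probes passed, covering 35 of the 36 genes. The gene that did not pass was Il1rn.

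Injury and infection make macrophages release interleukin 6, interleukin 1 and tumour necrosis factor, and hepatocytes answer by changing which plasma proteins they make. Interleukin 6 binds its receptor and the shared subunit gp130 and activates the transcription factor STAT3, while interleukin 1 acts mainly through NF-kB and C/EBP factors. Positive acute phase proteins such as serum amyloid A, haptoglobin and fibrinogen then increase in plasma over hours to days, and negative ones such as albumin and transthyretin decrease.

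All values below are log2 levels, which are the log2 of a spot's processed intensity minus that of the array's 75th percentile, so that 0 is a spot at that percentile. The 75th percentile lay between 158 and 191 intensity units in the CBZ arrays and between 173 and 180 in the DMSO arrays, 42.6% to 45.8% of the spots were well above background on each array, and no spot was saturated. All 6 arrays lay on 1 slide, with CBZ replicate 1 and the 3 DMSO arrays in row 1 and CBZ replicates 2 and 3 in row 2. A difference with slide row as a covariate therefore compares CBZ replicate 1 alone with the DMSO mice. The 12 hepatocyte markers examined were each well above background on every array. Of these Alb and Ttr are also members. The log2 differences between CBZ and DMSO were below 0 for 10 of the 12 and ran from -0.12 for Cps1 to 0.14 for Ttr, with 0.08 for Serpina1a the highest among the markers that are not members. In RNA of whole tissue, fewer cells of a type and less RNA per cell cannot be told apart. Where nothing else is said a gene is represented by its brightest probe, and each difference is CBZ minus DMSO with its standard error from limma, over 3 mice per group.

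No member gene passed the threshold of 0.05 for limma's Benjamini-Hochberg adjusted p in either direction. Of all 17063 genes tested 0.0469% were called higher and 0.00586% lower, and of all 22361 probes 0.0537% and 0.00894%, shares at which 35 genes would hold fewer than 1 call. At an unadjusted p under 0.05 limma had 0 members higher and 3 lower, against 5.01% and 3.96% of all genes. The 3 were Il6ra, Orm1 and Orm2, and they were also the only members whose 3 CBZ values did not overlap the 3 DMSO values. Every CBZ value lay below every DMSO value in 6.66% of all genes, and the groups did not overlap in either direction in 12.9%. Over the 35 members 19 differences were above 0 and 16 below, with a median of 0.012, against a median of -0.0044 over all genes. Median scaling of the arrays, in place of the 75th percentile, put 11 above 0 and 24 below. That scaling also moved the median over all probes to -0.11. The difference was within 0.5 of 0 on the log2 scale for 33 of the 35 members, and for 16168 of all 17063 genes. The whole 95% interval lay inside a 2-fold change for 30 of the members and for 16131 of all genes.

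**Figure D1:**
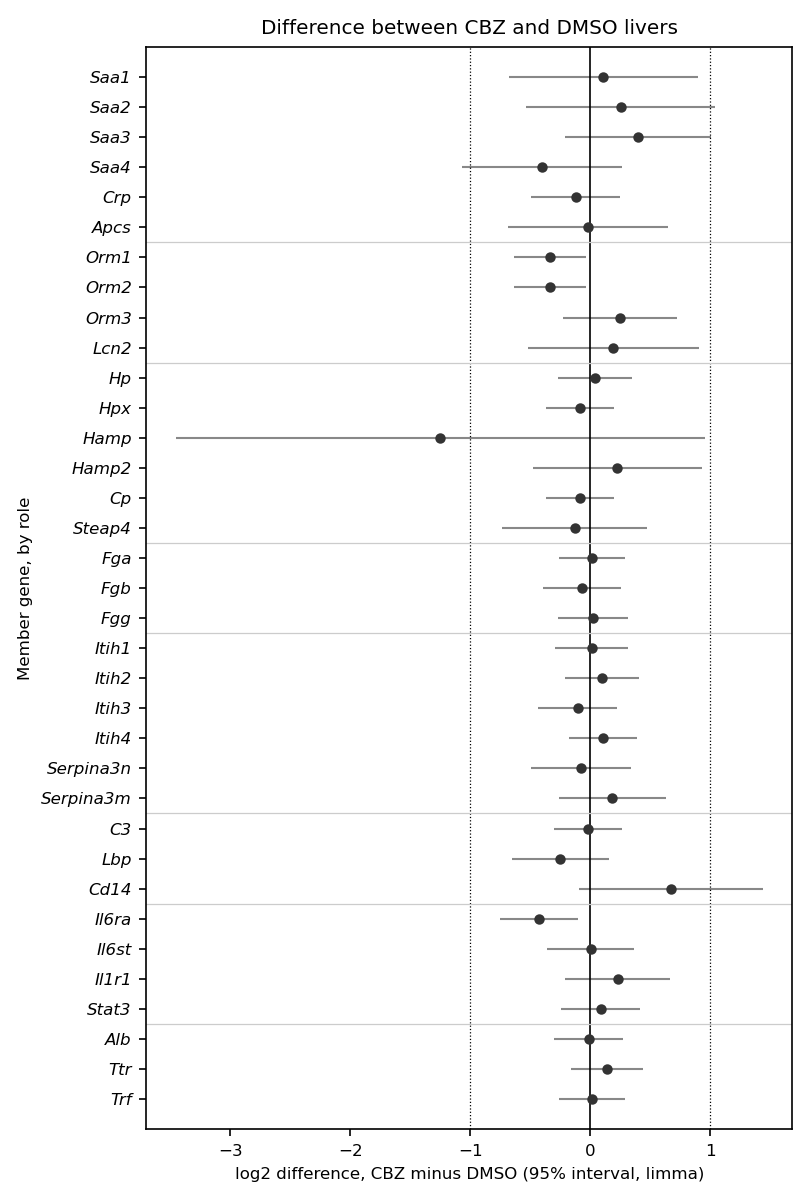
Difference between CBZ and DMSO livers for each of the 35 member genes, by role, on the log2 scale (CBZ minus DMSO). Points are limma estimates from 3 mice per group, bars are 95% intervals, and the dotted lines mark a 2-fold change; the points of 33 genes lie within 0.5 of 0, Hamp lies at -1.25 with the widest interval, and the intervals of Orm1, Orm2 and Il6ra lie below 0.

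Serum amyloid A proteins are small apolipoproteins of high density lipoprotein that are among the most strongly induced positive acute phase proteins of the mouse. The level of Saa1 was 6.77, 6.67 and 5.43 in CBZ livers, against 6.59, 6.07 and 5.88 in DMSO livers. Saa2, its neighbour on chromosome 7, was at 5.68, 5.31 and 4.21 in CBZ livers, against 5.11, 4.47 and 4.87 in DMSO livers. In both genes CBZ replicates 1 and 2 stood above all 3 DMSO mice, and CBZ replicate 3 was the lowest of the 6 mice. The difference was 0.11 ± 0.35 for Saa1 (limma's adjusted p = 0.98) and 0.25 ± 0.35 for Saa2 (adjusted p = 0.94 in limma). Without CBZ replicate 3 the Saa1 difference was 0.54 and that of Saa2 0.68, and without CBZ replicate 1 they were -0.13 and -0.06. None of these values passed the threshold. With slide row as a covariate, which compares CBZ replicate 1 alone with the DMSO mice, they were 0.59 and 0.87. Both probes sit in the Saa cluster of chromosome 7, in the coordinates of mm9 given by the array design, at chr7:53996070-53996129 for Saa1 and chr7:54009622-54009681 for Saa2. The genes are close copies, so a probe of one may take up signal of the other.

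The 250 bases before the start sites of Saa1 and Saa2 are shown because these genes followed the same order in CBZ mice and share a C/EBP core there. They are from the RefSeq promoter table of GRCm38.p6, read 5′ to 3′ on the strand of the gene. Saa1 is on the minus strand at chr7:46742981-46743230 and Saa2 on the plus strand at chr7:46751583-46751832. Capitals mark the C/EBP core TTGCNNAA, searched on both strands.
Saa1: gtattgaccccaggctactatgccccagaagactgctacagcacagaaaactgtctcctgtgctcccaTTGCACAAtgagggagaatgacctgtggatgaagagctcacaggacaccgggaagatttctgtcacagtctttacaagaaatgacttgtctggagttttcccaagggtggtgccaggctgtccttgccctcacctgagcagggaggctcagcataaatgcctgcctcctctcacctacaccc
Saa2: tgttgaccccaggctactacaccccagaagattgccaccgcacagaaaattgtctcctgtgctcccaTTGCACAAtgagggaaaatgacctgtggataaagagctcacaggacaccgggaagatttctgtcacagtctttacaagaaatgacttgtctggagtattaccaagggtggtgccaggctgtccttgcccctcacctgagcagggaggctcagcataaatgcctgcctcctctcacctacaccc
The core lay from -182 to -175 before the start site of Saa1 and from -183 to -176 before that of Saa2. Aligned without gaps the windows were identical at 79.1% of 249 bases. Saa2 holds an extra base toward the start site, and the matching stretch after it is out of register in that alignment. The share is therefore lower than an alignment with gaps would give. Windows were found for 29 of the 36 member genes, in 33 entries, and not for Cd14, Hp, Lbp, Orm1, Serpina3m, Trf and Ttr. The C/EBP core was present in the windows of 16 of the 29 genes, among them all 4 Saa genes, Orm2, Orm3, Alb, C3, Fga and Fgb, and in 9.56% of all 32851 windows in the table. A match is a run of letters, not evidence that a factor binds.

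The other serum amyloid A genes ordered the mice differently. Saa3, which macrophages and fat cells also make, was at 2.28, 2.35 and 2.32 in CBZ livers, against 2.48, 1.27 and 1.99 in DMSO livers. The CBZ values had an SD of 0.034 and lay inside the range of the DMSO values, which had an SD of 0.61. Its difference of 0.40 ± 0.27 (limma's adjusted p = 0.78) depended on DMSO replicate 2, without which it was 0.08. Saa4, which encodes the form that liver makes without inflammation, was at 6.15, 6.54 and 5.50 in CBZ livers, against 6.64, 6.78 and 5.97 in DMSO livers. Here 2 CBZ mice lay inside the DMSO range and CBZ replicate 3 lay below it, for a difference of -0.40 ± 0.29 (limma's adjusted p = 0.82). Leaving out CBZ replicate 3 gave -0.12 and leaving out DMSO replicate 2 gave -0.24, while leaving out CBZ replicate 2 gave -0.64 and leaving out DMSO replicate 3 gave -0.65.

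The pentraxins are ring-shaped pattern recognition proteins of plasma. Crp, which encodes C-reactive protein, a major acute phase protein in humans and a minor one in mice, differed by -0.12 ± 0.16 (limma's adjusted p = 0.94). Apcs encodes serum amyloid P component, the chief acute phase pentraxin of the mouse. It was at 4.12, 3.57 and 3.12 in CBZ livers and at 3.66, 4.06 and 3.13 in DMSO livers, a difference of -0.02 ± 0.29 (limma's adjusted p = 0.99). The mice of each group spread over about the same range. In 5 of these 6 genes of the serum amyloid A and pentraxin group CBZ replicate 3 was the lowest mouse, and the exception was Saa3. In Apcs and Crp the gap to the next mouse was 0.011 and 0.038. Before scaling DMSO replicate 3 was lower in both, at 1515 and 4015 intensity units against 1662 and 4325.

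Orosomucoids are acid glycoproteins that bind drugs and lipids in plasma and count among the positive acute phase proteins. Orm1 was at 6.78, 6.85 and 6.70 in CBZ livers, against 7.25, 7.12 and 6.97 in DMSO livers. Orm2 was at 7.47, 7.43 and 7.24 in CBZ livers, against 7.83, 7.68 and 7.63 in DMSO livers. Every CBZ mouse lay below every DMSO mouse in both genes. The difference was -0.34 ± 0.13 for Orm1, a level 1.26-fold lower with a 95% interval from -0.64 to -0.04 (limma's unadjusted p = 0.032, adjusted p = 0.47). For Orm2 it was -0.34 ± 0.13 with an interval from -0.64 to -0.04 (limma's unadjusted p = 0.032, adjusted p = 0.46). Both therefore missed the threshold over all probes. Slide row as a covariate reduces the comparison to CBZ replicate 1 with the DMSO mice, and the values were then -0.34 and -0.25.

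Orm3, the third gene of this cluster on chromosome 4, was at 1.45, 1.84 and 1.10 in CBZ livers, against 1.36, 0.93 and 1.35 in DMSO livers. Its groups overlapped, with a difference of 0.25 ± 0.21 (limma's adjusted p = 0.87). Leaving out CBZ replicate 2 gave 0.06, leaving out DMSO replicate 2 gave 0.11, and leaving out CBZ replicate 3 gave 0.43. The probes lie at chr4:63006483-63007090 for Orm1, chr4:63024979-63025038 for Orm2 and chr4:63018910-63020393 for Orm3 on mm9, where a span longer than the 60 bases of a probe is as the array design gives it. The 3 genes are close relatives whose signals a probe can share. Lcn2 encodes lipocalin 2, which binds bacterial iron carriers. It was at 3.61, 3.99 and 2.62 in CBZ livers, against 3.12, 3.47 and 3.07 in DMSO livers. CBZ replicates 1 and 2 were the highest of the 6 mice and CBZ replicate 3 the lowest, so that the difference was 0.19 ± 0.31 (limma's adjusted p = 0.96).

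**Figure D2:**
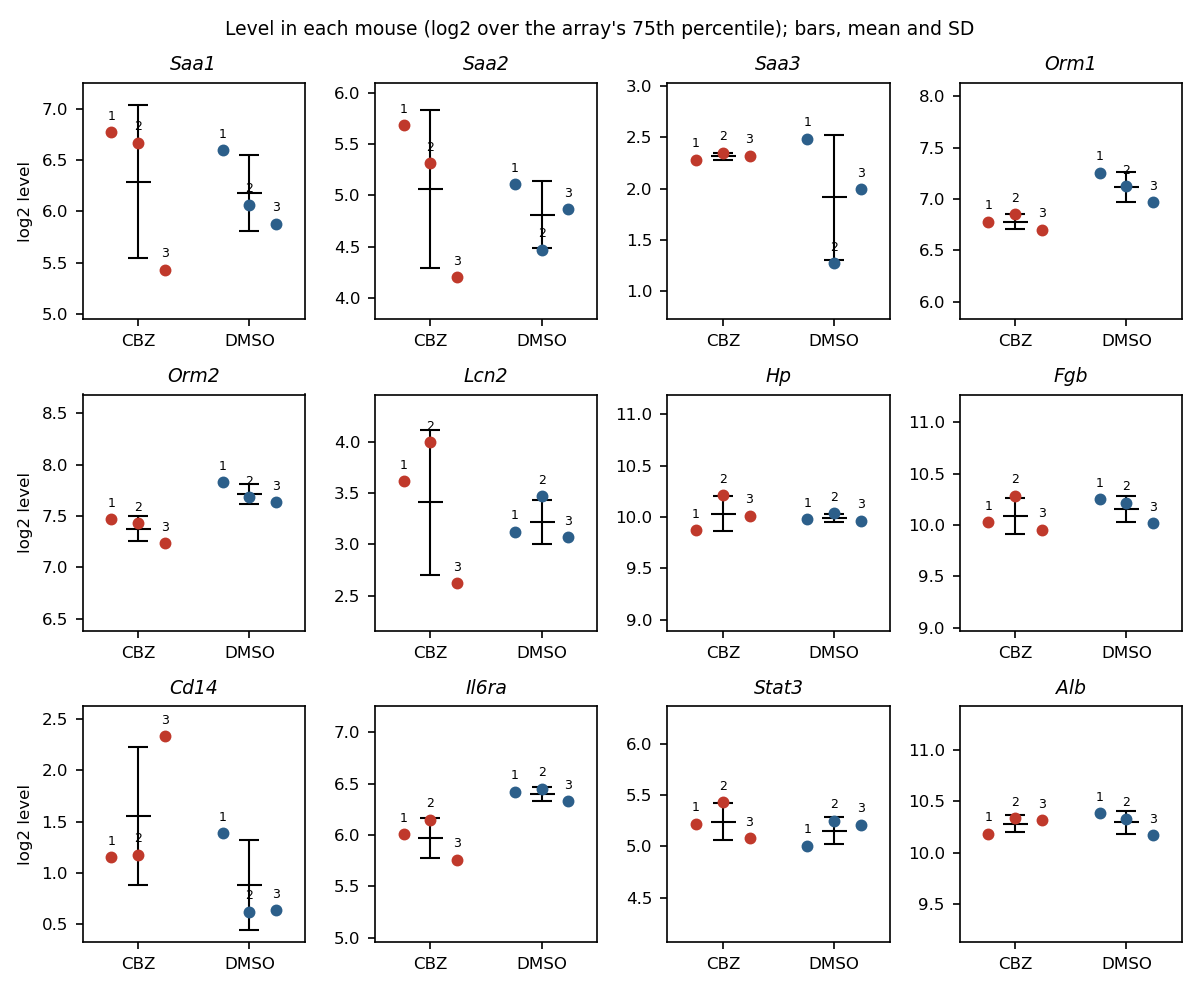
Level of 12 member genes in each mouse (log2 of processed intensity over the array's 75th percentile), with the replicate number beside each point and the mean and SD of 3 mice as bars; every panel spans the same height on the log2 scale. The CBZ points of Orm1, Orm2 and Il6ra lie below all DMSO points, the CBZ points of Saa1, Saa2 and Lcn2 are split with replicate 3 lowest, and Hp, Fgb and Alb vary little.

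Hepcidin is the peptide hormone that lowers iron in plasma by removing the iron exporter ferroportin from cells, and mice have 2 genes for it, Hamp and Hamp2. Hamp was at 3.22, 7.78 and 6.78 in CBZ livers, against 7.22, 7.63 and 6.69 in DMSO livers. CBZ replicate 1 alone stood apart, and the other 2 CBZ mice lay above the lowest DMSO mouse. In intensity units Hamp gave 1719 in CBZ replicate 1, 34821 and 21052 in the other CBZ mice, and 26890, 34359 and 17820 in DMSO mice. CBZ replicate 1 was 3.46 below the next lowest mouse on the log2 scale, which is 11.0-fold. Hamp was the 1 gene of 17056 with a value on every array in which a mouse lay that far below the next, which is 0.00586% of them. With normexp background correction the gap was 3.40.

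The groups as a whole differed by -1.25 ± 0.97 in Hamp, with a 95% interval from -3.45 to 0.95 (limma's adjusted p = 0.84). Without CBZ replicate 1 the difference was 0.10. Limma called Hamp lower under 3 of the alternatives tried, each of which keeps CBZ replicate 1. Of these, median scaling and the authors' table are the same fit, since that table is scaled by the array's median. They gave -1.35 (limma's adjusted p = 0.00098), where the test used 1 variance for all probes. The remaining alternative was slide row as a covariate, at -3.96, which compares CBZ replicate 1 alone with DMSO. The spot of Hamp on this array had no outlier flag, and its pixels varied by 9.11% of their mean, against 5.93% to 10% on the other 5 arrays. A low value of this mouse and one of its array cannot be told apart, since there is 1 array per mouse and 1 Hamp spot per array.

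Hamp2 in the same liver lay among the other mice. It was at 7.16, 7.46 and 6.66 in CBZ livers, against 7.37, 7.05 and 6.19 in DMSO livers, so CBZ replicate 1 lay inside the DMSO range. Its difference was 0.22 ± 0.31 (limma's adjusted p = 0.94), or -0.11 without DMSO replicate 3. The probes are shown because the hepcidin genes disagreed in this 1 mouse, and the letters show how far their probes differ. Both read 5′ to 3′ on the transcript, from the minus strand of mm9, Hamp at chr7:31727490-31727549 and Hamp2 at chr7:31707520-31707579. Capitals mark the bases at which they differ when aligned without gaps.
Hamp: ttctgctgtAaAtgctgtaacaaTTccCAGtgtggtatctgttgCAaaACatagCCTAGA
Hamp2: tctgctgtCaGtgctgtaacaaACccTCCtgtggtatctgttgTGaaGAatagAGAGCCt
Over 59 aligned bases 42 were identical, which is 71.2%, and the longest identical run was 14 bases.

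**Figure D3:**
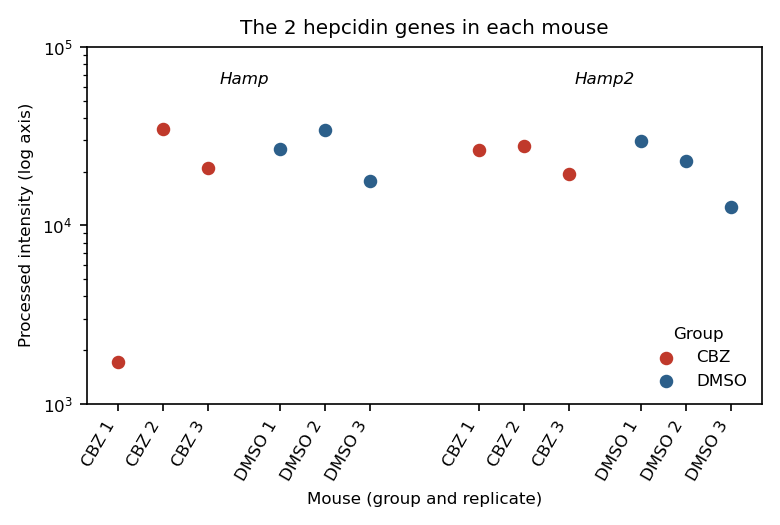
Processed intensity (log axis) of Hamp and Hamp2 in each of the 6 livers, 1 point per mouse, CBZ mice in red and DMSO mice in blue. Hamp in CBZ replicate 1 lies at 1719 intensity units and in the other 5 mice between 17820 and 34821, while Hamp2 in CBZ replicate 1 lies within the range of the other mice; intensities of different probes are not comparable.

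The windows before the start sites of both hepcidin genes are shown because the motifs known to control Hamp lie in them. They come from the same RefSeq table of GRCm38.p6, both on the minus strand, Hamp at chr7:30944030-30944279 and Hamp2 at chr7:30924182-30924431. Capitals mark the STAT3 motif TTCNNNGAA, through which interleukin 6 acts on Hamp, and the bone morphogenetic protein (BMP) response element GGCGCC, through which iron status acts on it.
Hamp: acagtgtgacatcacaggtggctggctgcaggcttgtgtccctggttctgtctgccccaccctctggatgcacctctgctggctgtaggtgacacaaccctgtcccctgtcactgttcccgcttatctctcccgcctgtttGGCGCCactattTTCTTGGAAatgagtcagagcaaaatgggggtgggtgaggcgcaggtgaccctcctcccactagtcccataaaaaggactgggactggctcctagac
Hamp2: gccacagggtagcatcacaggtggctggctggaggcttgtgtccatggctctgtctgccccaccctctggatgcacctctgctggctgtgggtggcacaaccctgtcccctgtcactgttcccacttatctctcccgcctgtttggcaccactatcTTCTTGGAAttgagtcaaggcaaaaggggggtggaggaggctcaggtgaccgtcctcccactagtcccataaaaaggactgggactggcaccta
The windows were identical at 91.9% of 247 aligned bases. Hamp held GGCGCC from -109 to -104 and TTCTTGGAA from -97 to -89 relative to the start site. Hamp2 held TTCTTGGAA from -94 to -86 and no GGCGCC. Over all windows, with both strands searched, 9.59% held GGCGCC and 7.02% held TTCNNNGAA, and among the 29 member genes 1 and 7 did. The other 6 genes with TTCNNNGAA besides Hamp were Hamp2, Apcs, Fga, Fgb, Itih4 and Steap4.

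Regulators of hepcidin, chosen after the value of Hamp had been seen, were read in the same mouse. Of 11 genes 8 were tested, and CBZ replicate 1 lay inside the range of the other 5 mice for 6 of them and below it for 2. That mouse was the lowest of the 6 in 16.6% of all genes, so few such genes set these apart from any others. The 2 were Atoh8, a BMP-responsive transcription factor, at 0.44 in CBZ replicate 1 and between 0.76 and 1.17 in the others, and Tmprss6, a protease that restrains hepcidin, at 7.36 against 7.38 to 7.66. Id1, a target of BMP signalling, was at -0.72, 0.56 and -1.25 in CBZ livers and at -0.18, 0.33 and -0.93 in DMSO livers, so CBZ replicate 1 was not its lowest mouse.

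The remaining carriers of haem, iron and copper differed little. Hp encodes haptoglobin, which binds free haemoglobin, and was at 9.87, 10.21 and 10.01 in CBZ livers, against 9.98, 10.04 and 9.96 in DMSO livers. Its DMSO mice lay inside the CBZ range. The difference of 0.04 ± 0.13 had a 95% interval from -0.27 to 0.35 (limma's adjusted p = 0.98), and with median scaling it was -0.06. Hpx, which encodes the haem carrier hemopexin, differed by -0.08 ± 0.12, and Cp, which encodes the copper oxidase ceruloplasmin, by -0.08 ± 0.13 (limma's adjusted p = 0.95 for both). A second probe of Cp was not well above background on any array. Steap4, a metalloreductase gene induced by inflammation, differed by -0.13 ± 0.27 (limma's adjusted p = 0.96).

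Fibrinogen is assembled from 3 chains, encoded by Fga, Fgb and Fgg next to each other on chromosome 3. Fgb, which encodes the beta chain, was at 10.03, 10.28 and 9.95 in CBZ livers, against 10.25, 10.21 and 10.01 in DMSO livers. Fga was at 6.43, 6.40 and 6.28 in CBZ livers, against 6.36, 6.38 and 6.33 in DMSO livers. The CBZ mice spread around the DMSO mice in both. The difference was -0.07 ± 0.14 for Fgb, 0.02 ± 0.12 for Fga and 0.02 ± 0.13 for Fgg (limma's adjusted p = 0.96, 0.99 and 0.99). A dimmer probe of Fga, at chr3:82837260-82837319, gave 5.50, 5.17 and 4.50 in CBZ livers and 5.28, 5.55 and 5.59 in DMSO livers. That probe differed by -0.42 ± 0.24 (limma's adjusted p = 0.71), so the probes of this gene disagreed. CBZ replicate 3 was the lowest mouse on both, on the brightest probe by 0.044.

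Inter-alpha-trypsin inhibitor heavy chains stabilise the hyaluronan matrix, and the serpins of this group inhibit proteases. Itih1 differed by 0.01, Itih2 by 0.09 and Itih3 by -0.11, each with a standard error between 0.13 and 0.14. Itih4, a positive acute phase gene, was at 9.32, 9.49 and 9.38 in CBZ livers, against 9.33, 9.34 and 9.21 in DMSO livers. Only CBZ replicate 1 lay inside the DMSO range, for a difference of 0.11 ± 0.12 (limma's adjusted p = 0.93). Its dimmer probe was at -0.01 ± 0.21. Serpina3n, which encodes the mouse counterpart of alpha-1-antichymotrypsin, differed by -0.07 ± 0.18, and its neighbour Serpina3m by 0.18 ± 0.20 (limma's adjusted p = 0.97 and 0.91). Serpina3 genes of the mouse are a cluster of close copies whose probes may share signal.

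C3, the central component of complement, differed by -0.02 ± 0.12 on its brightest probe and by -0.0014 ± 0.12 on the other (limma's adjusted p = 0.99 and 1.00). Its brightest probe is spotted 10 times on each array, and the SD among those single spots was 0.059 to 0.12 on the log2 scale. The SD between mice within a group was 0.080, but there each mouse is the mean of its spots. A mean over spots varies less than a single spot, so these SDs are not directly comparable. Lbp, which encodes the plasma protein that hands bacterial lipopolysaccharide to CD14, was at 4.54, 4.62 and 4.07 in CBZ livers, against 4.66, 4.84 and 4.48 in DMSO livers. CBZ replicate 3 lay below the other 5 mice and the other CBZ mice among the DMSO mice, for a difference of -0.25 ± 0.18 (limma's adjusted p = 0.81). It was -0.08 without CBZ replicate 3, -0.16 without DMSO replicate 2 and -0.12 with slide row as a covariate.

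Cd14 encodes the lipopolysaccharide receptor itself, which macrophages carry and hepatocytes can also secrete. It was at 1.16, 1.18 and 2.33 in CBZ livers, against 1.39, 0.62 and 0.64 in DMSO livers. CBZ replicate 3 stood above the rest by 0.94, and the other 2 CBZ mice lay below the highest DMSO mouse. The difference was 0.67 ± 0.34 (limma's unadjusted p = 0.078, adjusted p = 0.62). It was 0.28 without CBZ replicate 3, and 0.27 with slide row as a covariate. Of 12 markers of Kupffer cells and macrophages 11 were tested, with 9 differences above 0, 2 below and none past the threshold. The log2 of their summed level ranged from 7.59 to 7.86 in CBZ mice and from 7.19 to 8.32 in DMSO mice, and was 7.59 in CBZ replicate 3. The smallest unadjusted p among them belonged to Cd68, a macrophage gene, with a difference of 0.24 ± 0.14, followed by C1qb at 0.28 ± 0.23 (limma's adjusted p = 0.69 and 0.87). Adgre1 was not matched by name, while Clec4f, Timd4, Vsig4 and Marco, which define Kupffer cells, were well above background on every array.

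Il6ra encodes the receptor subunit that binds interleukin 6. It was at 6.01, 6.15 and 5.76 in CBZ livers, against 6.42, 6.45 and 6.33 in DMSO livers. All CBZ mice lay below all DMSO mice. The difference was -0.43 ± 0.14, a level 1.34-fold lower with a 95% interval from -0.75 to -0.11 (limma's unadjusted p = 0.015, adjusted p = 0.37). It was the smallest p among the members and missed the threshold over all probes. Over the alternatives the difference ran from -0.53 to -0.32 and limma's adjusted p from 0.11 to 1.00, and slide row as a covariate gave -0.39. The probe lies at chr3:89674054-89674113 on mm9.

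The partners of this receptor had overlapping groups. Il6st, which encodes gp130, differed by 0.0041 ± 0.16 (limma's adjusted p = 1.00). Stat3, which encodes the transcription factor downstream, was at 5.22, 5.43 and 5.08 in CBZ livers, against 5.0, 5.25 and 5.21 in DMSO livers. Its groups overlapped, with a difference of 0.09 ± 0.14 (limma's adjusted p = 0.96), and a dim second probe was at -0.24 ± 0.23. The brightest Stat3 probe is spotted 10 times on each array, with an SD among single spots of 0.020 to 0.067. The SD between mice, each the mean of its spots, was 0.16. Il1r1, which encodes the signalling receptor of interleukin 1, was at 2.71, 3.31 and 2.79 in CBZ livers, against 2.59, 2.59 and 2.94 in DMSO livers. CBZ replicate 2 was its highest mouse, and the difference was 0.23 ± 0.19 (limma's adjusted p = 0.87). It was 0.04 without CBZ replicate 2. Il1rn, which encodes the receptor antagonist of interleukin 1, was not well above background on any of the 6 arrays, so no difference is given.

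Albumin, transthyretin and transferrin carry fatty acids, thyroid hormone and iron in plasma and decrease in the acute phase. Alb was at 10.19, 10.34 and 10.32 in CBZ livers, against 10.38, 10.33 and 10.17 in DMSO livers. Ttr was at 8.78, 9.09 and 8.91 in CBZ livers, against 8.75, 8.77 and 8.83 in DMSO livers. Both genes had overlapping groups. The difference was -0.01 ± 0.13 for Alb, with a 95% interval from -0.30 to 0.28 (limma's adjusted p = 0.99), and 0.14 ± 0.13 for Ttr (adjusted p = 0.89 in limma). Trf, which encodes transferrin, was at 9.95, 10.05 and 10.02 in CBZ livers, against 10.05, 10.03 and 9.90 in DMSO livers. It differed by 0.02 ± 0.12 on this probe and by -0.06 ± 0.14 on the other, so both lay near 0 (limma's adjusted p = 0.99 and 0.97).

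Several members varied little between mice and had very bright probes. Among the brightest 1% of the probes tested were 11 member probes of 9 genes, Alb, C3, Fgb, Fgg, Hp, Hpx, Itih4, Trf and Ttr. They reached from 0.28 to 0.88 of the brightest spot of their arrays. Their SD between mice within a group was 0.069 to 0.15 on the log2 scale, and their differences ran from -0.08 to 0.14. No spot was marked as saturated, and whether such bright spots respond in proportion to RNA was not tested. The median SD within groups was 0.16 over the 35 members and 0.18 over all genes, and 17 members lay above that of all genes. The range over the 6 mice, highest over lowest, was widest for Hamp at 23.6-fold, then Cd14 at 3.27-fold, Saa2 at 2.78-fold, Lcn2 at 2.58-fold and Saa1 at 2.53-fold. It was narrowest for Fga at 1.11-fold and Trf at 1.11-fold, each on its brightest probe. On the log2 scale the dimmer probe of Fga ran from 4.50 to 5.59, and that of Trf from 9.58 to 9.93.

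Single mice were low or high across many members. CBZ replicate 3 was the lowest of the 6 mice in 17 of the 35 members, or 48.6%, against 21.1% of all genes. CBZ replicate 2 was the highest in 15 members, or 42.9%, against 22.3% of all genes. DMSO replicate 3 was the lowest in 9 members, or 25.7%, near the 21.5% of all genes. It was the highest in 0 members, against 15.7% of all genes, and also in 0 with median scaling and normexp. Under quantile scaling it was the highest in 4 members, or 11.4%, against 22.1% of all genes. With the percentile over detected spots it was the highest in 3, or 8.57%, against 26.9%. On scaled levels all 3 fibrinogen chains were lowest in CBZ replicate 3, as were 3 of the 4 orosomucoid and lipocalin genes. For the fibrinogen chains its gap to the next mouse was 0.035 to 0.060 on the log2 scale. Before scaling, CBZ replicate 3 was the highest mouse for Fgg, at 154925 intensity units. Fgb was then lowest in DMSO replicate 3, at 178803, and Fga, Orm1 and Orm2 in CBZ replicate 2, at 13401, 18288 and 27254. Lcn2 was still lowest in CBZ replicate 3, at 1178. CBZ replicate 2 had the lowest 75th percentile of the 6 arrays, 158 intensity units, and CBZ replicate 3 the highest, 191. The part of this in the order of all 35 members was not tested. Under the other scalings and background correction CBZ replicate 3 was lowest in 11 to 15 members, or 31.4% to 42.9%, against 15.9% to 21.4% of all genes. The share with CBZ replicate 2 highest moved more, in members and in all genes alike. It was 57.1% of members against 39.6% of all genes under median scaling, and 37.1% against 19.5% with normexp background correction. It was 31.4% against 10.8% with the percentile over detected spots, and 22.9% against 13.8% under quantile scaling. The members are made largely by the same cells and are not independent of each other, and no test was made of these counts.

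**Figure D4:**
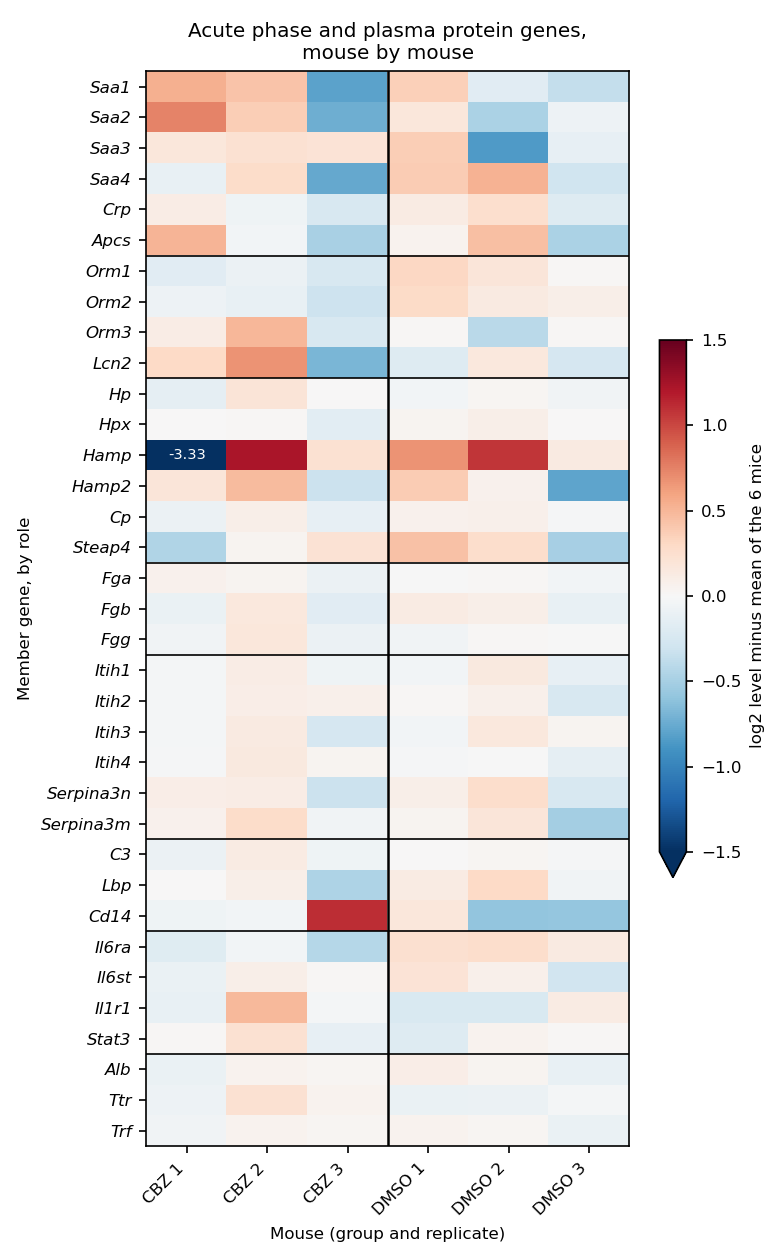
Level of each of the 35 member genes in each mouse, as log2 level minus the gene's mean over the 6 mice; columns are mice, rows are genes by role, red is above and blue below the mean, and the colour stops at 1.5. CBZ replicate 3 is blue across the serum amyloid A genes other than Saa3, Hamp in CBZ replicate 1 lies at -3.33, and the columns of a group do not share 1 colour for most genes.

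The cytokines that start the acute phase were read from a list of 22 cytokine and signalling genes, of which 14 were tested. Il6, Il1a, Il1b and Tnf were not tested, because they were not well above background on all arrays of either group, and Lif, Il1r2 and Tlr4 were among the others not tested. The tested genes had 4 differences above 0 and 10 below, with a median of -0.10, and none passed the threshold. Osm and Tlr2, counted above 0, passed the filter only through the CBZ group. Il11 and Il22, counted below 0, passed it only through the DMSO group. Such passage selects for the direction counted. The smallest unadjusted p belonged to Tnfrsf1b, which encodes a tumour necrosis factor receptor. It was at -0.18, -0.19 and 0.17 in CBZ livers, against -0.37, -0.61 and -0.43 in DMSO livers, a difference of 0.40 ± 0.15 with the groups apart (limma's adjusted p = 0.44). Tyk2, a Janus kinase gene, was at -0.33 ± 0.18, and Ly96, which encodes a partner of the lipopolysaccharide receptor, at -0.31 ± 0.16.

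Of 21 transcription factors and feedback genes of the response 18 were tested, with 9 differences above 0 and 9 below and none past the threshold. Cebpb, a C/EBP factor of acute phase genes, was at 5.88, 6.26 and 6.20 in CBZ livers, against 5.62, 5.64 and 5.59 in DMSO livers. All CBZ mice lay above all DMSO mice, by 0.50 ± 0.14, which is 1.41-fold (limma's unadjusted p = 0.0071, adjusted p = 0.30). Socs3, the feedback inhibitor that STAT3 induces, was at 1.47, 1.39 and 0.84 in CBZ livers, against 1.85, 1.72 and 1.67 in DMSO livers. All its CBZ mice lay below all DMSO mice, by -0.51 ± 0.18 (limma's unadjusted p = 0.020, adjusted p = 0.41). Junb, an AP-1 gene, differed by -0.62 ± 0.20 with the groups apart (limma's adjusted p = 0.37).

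Among 18 other acute phase genes of liver 14 were tested, with 8 differences above 0 and 6 below and a median of 0.01. Nos2, counted above 0, passed the filter only through the CBZ group. Slc39a14, which encodes a zinc and iron transporter that interleukin 6 induces, was at 3.51, 3.60 and 3.38 in CBZ livers, against 3.14, 3.19 and 2.95 in DMSO livers. Its CBZ mice lay above all DMSO mice, by 0.40 ± 0.13 (limma's unadjusted p = 0.015, adjusted p = 0.37). Serpina3c and Serpina3g were both at 0.29, with standard errors of 0.18 and 0.21.

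Of 47 names listed for other secreted plasma proteins of hepatocytes 45 were matched on the array, and all 45 were tested. C5 and Serpina1b were not matched by name. The tested genes had 16 differences above 0 and 29 below, a median of -0.04 and none past the threshold. C6, a component of the complement attack complex, was at 3.51, 4.20 and 3.98 in CBZ livers, against 4.77, 4.99 and 4.64 in DMSO livers. All CBZ mice lay below all DMSO mice, by -0.90 ± 0.19, a level 1.87-fold lower (limma's unadjusted p = 0.0013, adjusted p = 0.19). C9, of the same complex, differed by -0.46 ± 0.20 with overlapping groups (limma's adjusted p = 0.52). Serpina7, which encodes thyroxine-binding globulin, was at -0.98, -1.29 and -1.15 in CBZ livers, against -2.29, -1.75 and -3.15 in DMSO livers. It was well above background on all 3 CBZ arrays and on 1 of the 3 DMSO arrays. It was thus tested only through the group in which it was high, which selects for that direction, so its difference and p are not given. In this list 2 genes, Serpina7 being 1 of them, had every CBZ value above every DMSO value and 5 had every one below, against 6.27% and 6.66% of all genes.

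Markers of other cells of the liver were read beside these genes. Of 11 neutrophil markers 6 were tested, with 3 differences above 0 and 3 below. Camp and S100a8, both among the 3 above 0, passed the filter only through the CBZ group, which selects for that direction. The log2 of the summed level ranged from 6.38 to 6.56 in CBZ mice and from 6.40 to 6.68 in DMSO mice. That sum follows Csf3r, at 6.28 to 6.63, while the other markers reached at most 1.65. The mean of the log2 levels ranged from 0.66 to 0.84 in CBZ mice and from 0.095 to 1.07 in DMSO mice, lowest in DMSO replicate 3. Ngp, Ltf, Mpo, Cxcr2 and Retnlg were not well above background on all arrays of either group. S100a9, which encodes a calcium-binding protein of neutrophils, was at 0.73, 0.92 and 0.88 in CBZ livers, against 1.12, 1.65 and -1.72 in DMSO livers. Of 10 stellate cell and fibroblast markers 9 were tested and 8 differences were above 0. Their summed level was 7.67 to 8.34 in CBZ mice and 7.75 to 7.96 in DMSO mice on the log2 scale. That sum follows Dcn and Ecm1, at 6.25 to 7.08 and 6.63 to 7.21 over the 6 mice. Of 11 T, NK and B cell markers 8 were tested and 7 differences were above 0. Their summed level was 4.08 to 4.44 in CBZ mice and 4.02 to 4.05 in DMSO mice. That sum follows Cd4, at 3.18 to 3.75 in CBZ mice and 3.04 to 3.12 in DMSO mice. Over all genes 49.1% of the differences were above 0. Hgf of the stellate list and Cd79a of the T, NK and B cell list, both counted above 0, passed the filter only through the CBZ group. Sinusoidal endothelium had 10 of 10 markers tested, with 6 differences above 0 and 4 below. Cholangiocytes had 3 of 7 tested, with 2 above 0 and 1 below, Krt7, which passed the filter only through the DMSO group. Red blood cells had 6 of 8 listed names matched on the array, all of them tested, with 2 above 0 and 4 below. The smallest p there belonged to Alas2, at -0.46 ± 0.17 with the groups apart (limma's adjusted p = 0.44). None of these markers passed the threshold, and their part in the values above was not tested.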

How the data were processed

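Whole-liver RNA of 6 mice, 3 given CBZ and 3 given DMSO, was measured on 1-colour arrays, 1 per mouse, and groups and replicate numbers came from the labels. Per the labels' protocols, RNeasy columns were used to isolate RNA, and 100 ng of it was turned into Cy3-labelled cRNA. The submitters' processing notes and the file headers name the software that extracted the scans, Agilent Feature Extraction 10.7.3.1, run with protocol GE1_107_Sep09. Deposited scanner files hold an intensity per spot on a linear scale, which per the file headers was corrected for background and for spatial trends. The authors' deposited value table holds a ratio of that intensity to the array's median. This was found by dividing the scanner values by that median, which gave the table back to within 2.441e-06 of each value and a median of 1 in each column.

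Control spots were left out, as were 114 to 126 spots per array that carried an outlier flag. The log2 of the processed intensity was taken, each array's 75th percentile over non-control spots was subtracted, and repeated spots of a probe were averaged. A probe counted as well above background on an array if at least 0.5 of its spots were, and 22361 probes of 17063 genes were tested. The groups were compared by the two-sided moderated test of limma 3.58.1 (lmFit, eBayes) under R 4.3.3, without covariates. Benjamini-Hochberg adjustment ran over all probes tested, with a threshold of 0.05. An exact permutation test of 3 mice against 3 cannot go below 0.10, so none is given. The number of arrays limits the precision, and the 75th percentile stood 9.89 to 12.3 times over the median local background. The fit was tested on simulated data.

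The members and gene lists were chosen with earlier results of these data known. Values per mouse are given for members whose groups did not overlap, for the 12 with the largest absolute difference, for those past the threshold, for members whose probes disagree in direction, and in any case for Saa1, Saa2, Hp, Fgb, Il6ra, Stat3, Alb and Ttr. Lcn2, Apcs, and Id1, Atoh8 and Tmprss6 were added after their values were seen. From each pathway list up to 3 genes with the smallest unadjusted p are named. The cell type lists are given mainly by counts. Markers of Kupffer cells, hepatocytes and neutrophils are named to say whether they were detected or how far they ranged. A few other markers are named for a small unadjusted p, for how they passed the filter or because a sum follows them. Genes are named as in the array files, with coordinates on mm9, and promoter windows come from a RefSeq table of GRCm38.p6. Mice of the 2 groups with the same replicate number did not deviate together (r = -0.24, 0.016 and 0.18 across probes), so the numbers were not taken as pairs. The arrays shared 1 slide and 1 scan date.

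The alternatives were normexp background correction (offset 50), quantile and median scaling, the 75th percentile over spots detected on all arrays, no filter, and a filter on all 6 arrays. Further alternatives were robust eBayes with an intensity trend, the authors' table, a replicate block, slide row as a covariate, leaving out each mouse, the mean of a gene's probes, and an adjusted p under 0.10. Median scaling and the authors' table are the same fit, although each is counted among the alternatives.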

Additional observations from a re-analysis of the deposited data

How the results depend on the processing

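The count of member probes called higher stayed at 0 in all 18 alternatives, and the count called lower stayed at 0 in 15 and was 1, Hamp, under median scaling, the authors' table and slide row as a covariate. Without CBZ replicate 1 its difference was 0.10. The median difference over member genes ran from -0.087 to 0.049 over the 17 alternatives that give one, so its sign was not stable. It was below 0 with normexp (-0.013), median scaling and the authors' table (-0.087), slide row (-0.023) and the mean of a gene's probes (-0.014). It was also below 0 without CBZ replicate 2 (-0.049) and without DMSO replicate 3 (-0.047). With the replicate number as a block it was 0.012, and the same counts of 0 were found. Il6ra, Orm1, Orm2, Saa3, Saa4, Orm3, Fgb, Itih4, Lbp and Cd14 kept their direction in all 17 alternatives, but not their size. The number of member probes at an unadjusted p under 0.05 in limma, 3 in the report, was 5 with normexp and 4 without CBZ replicate 1. It was 1 with no filter and with slide row, and 0 without DMSO replicate 2. Differences near 0 turned sign. Median scaling and the authors' table gave -0.0598 for Hp, -0.083 for Fga, -0.0125 for Stat3 and -0.0841 for Trf, where the centring at the array median lowers the differences of all probes. Normexp gave -0.00038 for Fga and -0.0134 for Trf, the percentile over detected spots 0.012 for Alb, and the mean of a gene's probes -0.20 for Fga, -0.0779 for Stat3 and -0.0231 for Trf. Slide row as a covariate gave -0.12 for Hp, -0.0036 for Il1r1, -0.0052 for Ttr and -0.0421 for Trf. For these sign changes the cause was not tested. Leaving out single mice moved the difference between -0.13 and 0.54 for Saa1, -0.0557 and 0.68 for Saa2, -2.18 and 0.10 for Hamp, -0.115 and 0.47 for Hamp2, -0.0494 and 0.119 for Hp, -0.0135 and 0.062 for Fga, -0.00605 and 0.169 for Stat3, -0.0756 and 0.0329 for Alb, and -0.0322 and 0.045 for Trf. Without a turn of sign it moved between 0.078 and 0.68 for Saa3, -0.65 and -0.12 for Saa4, 0.06 and 0.43 for Orm3, -0.169 and -0.0048 for Fgb, 0.061 and 0.143 for Itih4, -0.353 and -0.081 for Lbp, 0.28 and 0.92 for Cd14, 0.039 and 0.344 for Il1r1, 0.061 and 0.215 for Ttr, -0.41 and -0.266 for Orm1, -0.38 and -0.266 for Orm2, and -0.52 and -0.32 for Il6ra. For the order of the mice the scalings were added after seeing the data, and quantile scaling put CBZ replicate 3 lowest in 11 members and CBZ replicate 2 highest in 8. Over all probes limma called 12 higher and 2 lower, against 83 and 91 with an intensity trend and robust estimation, 76 and 54 with normexp, 60 and 71 with median scaling and the authors' table, 31 and 12 with the filter on all 6 arrays, 5 and 2 with quantile scaling, 4 and 3 with slide row, 9 and 1 with the replicate block, and 6 and 0 over detected spots. With no filter limma called 0 and 0, with 1706 and 908 at an unadjusted p under 0.05. The 0 lower over detected spots stood beside 892 at that unadjusted p. Leaving out single mice gave 0 to 25 higher and 0 to 8 lower, the most (25 and 8) without CBZ replicate 1. limma called 0 and 0 without CBZ replicate 2 (1299 and 1018 at that unadjusted p) and without DMSO replicate 3 (1377 and 1460), and 1 and 0 without CBZ replicate 3 (786 and 699).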
